A study of Mus musculus with 196 samples.

Results

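The 10 genes described here are targets of bone morphogenetic protein (BMP) signalling, listed by name: Id1, Id2, Id3, Id4, Smad6, Smad7, Bambi, Msx1, Msx2 and Hamp. They are 10 of the 25706 endogenous genes in the table, and all 10 were found. Their levels were followed in cultured mouse PGCLCs (primordial germ cell-like cells, derived from embryonic stem cells), through the addition of BMP2, retinoic acid (RA) or both, and in lines without Zglp1 or Stra8. Zglp1 encodes a zinc finger protein of germ cells and Stra8 a retinoic acid-induced gene needed for meiosis.

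The treated groups were BMP2, RA, B2RA (known from the study as BMP2 with RA), Dox (doxycycline, which switches on the Zglp1 transgene) and DoxRA, each set against the group labelled control. Every PGCLC line was 129S1:C57BL/6=1:1 and carried the Prdm1-mVenus (BV) and Dppa3-ECFP (SC) reporters. The Zglp1-/- clones were E5 and G10, and the Stra8-/- clones were B6 and F6. Zglp1OE clone A2 carried a tetO-driven Zglp1 coding sequence with IRES-mCherry and an EF1a-driven rtTA, and Zglp1OE;Stra8KO clone A11 carried the same transgenes without Stra8. The parental clone H18 carried the reporters alone. In the plots these lines are named Zko_E5, Zko_G10, Sko_B6, Sko_F6, OE_A2, OESko_A11 and H18. Clone A2 was also cultured in media labelled BMS, SerumMinus and SerumMinusWIN, with or without Dox, and the labels do not spell these names out. The cells had been induced with BMP4, so every line had met BMP before day 0. They were sorted for BV at day 0, grown on m220 feeder cells and sorted for SC at days 3 to 9. Germ cells of embryos formed a separate group of 1 library a stage, primordial germ cells at E9.5 carrying Dppa3-EGFP and oocytes at E14.5 and E15.5 carrying Ddx4-RFP, all ICR:C57BL/6=1:1.

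In all 194 libraries of 3' end RNA sequencing were used, 191 of them PGCLCs in 98 groups, of which 93 held 2 libraries and 5 held 1. Each library held 877040 to 5196593 reads assigned to genes, so 1 read was worth 0.192 to 1.14 RPM (reads scaled to the same total in each library), and levels near 1 RPM rest on a few reads. The labels do not say whether replicates were separate cultures, so p-values measure the spread between these libraries, and a single clone cannot be told apart from its genotype. Summed germ cell markers (8 genes) ranged from 993 to 3834 RPM in the PGCLC libraries, those of feeder cells and stroma (16 genes) from 235 to 2064 RPM. Zglp1 averaged 26.5 RPM in B2RA-treated E5 cells, 20.9 RPM in G10 cells and 51.2 RPM in H18 cells at day 9, and Stra8 averaged 555 RPM in B6 cells, 59.9 RPM in F6 cells and 731 RPM in H18 cells. The part of each gene that was altered is not given, so a 3' tag outside it checks nothing. Libraries labelled H18 at days 4 to 9 were placed by their titles, since 17 of the 25 samples with the stage label day 3.5 have another day in the title.

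BMP ligands bind paired receptor kinases that phosphorylate SMAD1, SMAD5 and SMAD9, which enter the nucleus with SMAD4 and bind DNA beside their target genes. The ID proteins are among the most direct targets of the pathway: they lack a DNA-binding region and hold basic helix-loop-helix factors off DNA. Smad6 and Smad7 encode inhibitory SMADs and Bambi a receptor without a kinase domain, so these 3 targets act back on the pathway. Msx1 and Msx2 encode homeobox factors, and Hamp encodes hepcidin, the iron hormone that BMP signalling raises in liver. BMP signals are needed both to form primordial germ cells and, with retinoic acid, for the female germline programme.

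In mm10 (GENCODE vM21) Id1 lies on chromosome 2 (152736251-152737410, plus strand), Id2 on chromosome 12 (25093799-25097140, minus), Id3 on chromosome 4 (136143497-136145755, plus) and Id4 on chromosome 13 (48261228-48266026, plus). Smad6 lies on chromosome 9 (63953076-64022059, minus), Msx1 on chromosome 5 (37820485-37824583, minus), Msx2 on chromosome 13 (53466884-53473074, minus) and Hamp on chromosome 7 (30942368-30944032, minus). All 10 are protein-coding, and the 3' tags count each gene as a whole.

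The stretches before the gene starts are shown because phosphorylated SMADs are known to bind GC-rich elements, written here as GGCGCC, and the palindrome GTCTAGAC, and because Msx1 and Hamp were the members with the largest effect of RA below. RefSeq windows of 250 bases before and 50 after the start (GRCm38.p6) were at hand for 7 of the 10 genes. GGCGCC stood in the windows of Id2, Id4 and Hamp, and in 3892 of all 32817 windows (11.9%). GTCTAGAC stood in that of Smad6, and in 70 of all windows (0.213%). Both motifs read the same on both strands. The direct repeats AGGTCANNAGGTCA and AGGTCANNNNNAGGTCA, to which retinoic acid receptors are known to bind, were searched on both strands; each was in 3 of all windows (0.00914%) and in none of the 7. The windows of Id3, Msx1 and Msx2 held none of these motifs, which says only that these letters were not there. In the lines below capitals mark the motif, and distances count from the RefSeq start to the first base of the motif. The Smad6 motif runs across the start. For Id2 and Id4 this start differs from that of the GENCODE positions given above. For Msx1 and Hamp the starts lie a few bases apart, and the Hamp stretch shown ends at the GENCODE start. The Id2 stretch shown lies inside the GENCODE span of the gene.
Id2, chr12:25096308-25096333, minus strand, 231 bases before the start: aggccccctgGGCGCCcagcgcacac
Id4, chr13:48260958-48260983, plus strand, 148 bases before the start: cgggttgcccGGCGCCccgccctcgc
Smad6, chr9:64022046-64022073, minus strand, 4 bases before the start: ccgccaaagtGTCTAGACtggcatatga
Hamp, chr7:30944033-30944279, minus strand, the 247 bases before the start: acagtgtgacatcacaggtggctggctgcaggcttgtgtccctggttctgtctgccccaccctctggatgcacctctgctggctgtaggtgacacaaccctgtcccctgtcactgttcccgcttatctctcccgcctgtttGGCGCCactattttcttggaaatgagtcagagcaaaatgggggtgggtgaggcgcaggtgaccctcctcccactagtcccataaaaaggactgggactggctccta
Msx1, chr5:37824586-37824835, minus strand, the 250 bases before the start: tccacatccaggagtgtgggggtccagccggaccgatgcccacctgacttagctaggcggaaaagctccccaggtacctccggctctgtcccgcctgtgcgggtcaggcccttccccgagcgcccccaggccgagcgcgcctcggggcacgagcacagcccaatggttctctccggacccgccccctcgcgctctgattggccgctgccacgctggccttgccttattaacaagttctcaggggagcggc

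Id1, Id2, Id3, Bambi and Msx2 were higher with BMP2 than in controls in the Zglp1-/- clones. Id1, Msx1, Hamp, Smad6 and Smad7 were higher there with B2RA than with BMP2 alone at days 7 or 9. A change was called when limma's adjusted p over all genes was under 0.05 and the difference of log2(RPM + 1) was at least 1; a gene was tested when 2 of the compared libraries reached 10 RPM. With 10 genes at 4 days (4, 5, 7 and 9), 30 of the 40 comparisons of BMP2 with control could be tested in the Zglp1-/- clones. Of these 12 were called higher and 0 lower, where 0.304% of all tests were called higher and 0.326% lower. For B2RA 35 could be tested, with 24 higher and 0 lower against 2.87% and 1.75% of all tests. The median change of the tested members was 1.13 under BMP2 and 1.97 under B2RA, and the median of all genes lay between 0.02 and 0.11. Both responses used the same control libraries. A filter that needs 10 RPM lets low genes in through the group where they are high, so these counts describe the members that passed. In sorted bulk samples, fewer cells of a type and less RNA per cell cannot be told apart.

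**Figure D1:**
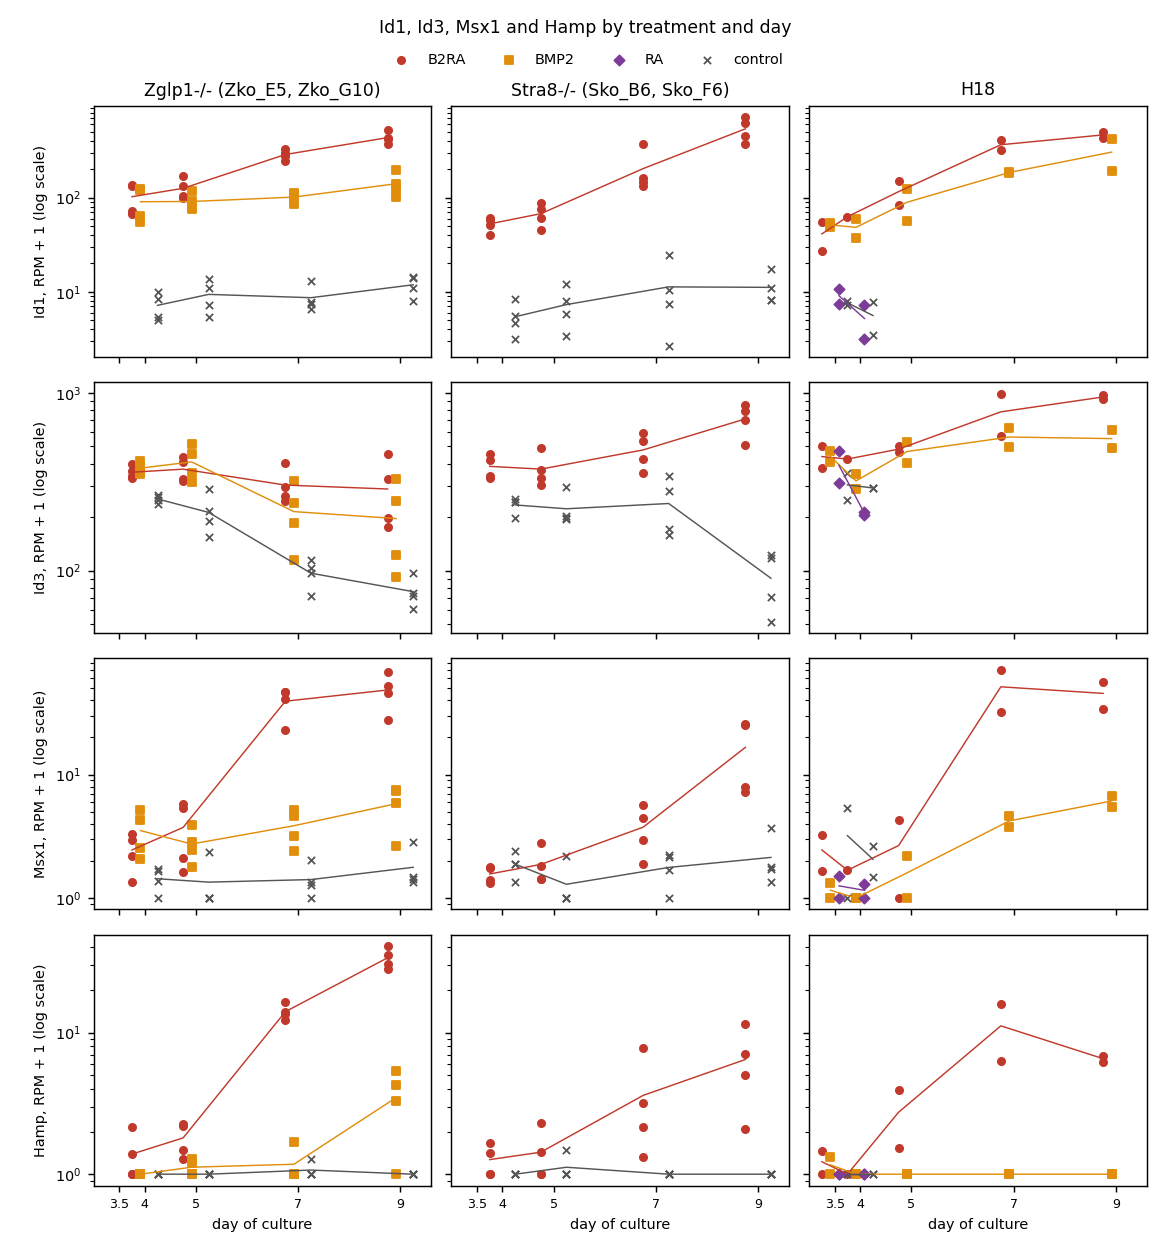
Levels of Id1, Id3, Msx1 and Hamp as RPM + 1 (log axis) by day of culture in the Zglp1-/- clones, the Stra8-/- clones and H18, with 1 point per library, lines through the means, and colours and symbols for B2RA, BMP2, RA and control. In the Zglp1-/- and Stra8-/- panels the B2RA libraries sit above the controls for Id1 at every day, while Msx1 and Hamp stay near the floor at days 4 and 5 in the 3 panels.

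Id1, a textbook direct target of BMP, was called at every day under both treatments. At day 9 its level was 370 and 418 RPM in B2RA-treated E5 cells and 430 and 518 RPM in B2RA-treated G10 cells, against 13 and 10 RPM in E5 controls and 7.06 and 13.4 RPM in G10 controls. BMP2 alone gave 123 and 101 RPM in E5 and 138 and 197 RPM in G10. All libraries of a treatment lay above all controls, and B2RA lay above BMP2. The change over the control was 5.22 ± 0.41 (SE, adjusted p = 3.6e-19) for B2RA and 3.56 ± 0.41 (adjusted p = 9.5e-11) for BMP2. At day 4 the corresponding changes were 3.82 ± 0.41 and 3.63 ± 0.41, both called. Across the Zglp1-/- controls Id1 averaged 6.17 ± 2.36 RPM at day 4 and 10.9 ± 2.97 RPM at day 9 (SD, n = 4).

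The effect of RA on top of BMP2 was tested by setting B2RA against BMP2. For Id1 it was 1.5 ± 0.41 at day 7 (adjusted p = 0.0099) and 1.66 ± 0.41 at day 9 (adjusted p = 0.0017). Neither day 4 nor day 5 was called. Over all members 9 of 35 tests were called higher and 0 lower, where 1.91% of all tests were called higher and 1.01% lower. The 9 were Id1, Msx1, Hamp and Smad6 at days 7 and 9 and Smad7 at day 9. Without replicate 1 of BMP2-treated G10 cells 5 were called.

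Id2 and Id3, which like Id1 restrain helix-loop-helix factors, differed in their timing. Id2 had 38.7 and 49.9 RPM in B2RA-treated E5 cells and 25.5 and 46 RPM in G10 cells at day 4, against 5.67 and 6.75 RPM and 3.31 and 7.53 RPM in the controls, with no overlap. It was called higher under B2RA at all 4 days (2.59 ± 0.37 at day 4, 2.37 ± 0.37 at day 9) and under BMP2 at days 4 and 9 (2.33 ± 0.37 and 1.40 ± 0.37). Id3 was already at 235 to 265 RPM in the Zglp1-/- controls at day 4 and 330 to 395 RPM under B2RA there, which was not called. By day 9 it averaged 287 ± 127 RPM under B2RA and 75.2 ± 15.0 RPM in control cells (SD, n = 4), a change of 1.83 ± 0.26 (adjusted p = 2e-08). The day 9 difference came beside a fall in the controls, described below under culture time. For BMP2 alone Id3 changed by 1.20 ± 0.26 at day 9 (adjusted p = 0.0018). Its level under BMP2 also fell, from 349 to 412 RPM at day 4 to 90.9 to 325 RPM at day 9.

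Id4, the ID gene known for its part in spermatogonial stem cells, was called under B2RA at 1 day, day 7, with a change of 1.25 ± 0.39 (adjusted p = 0.024), and the call was lost in 5 of 15 other settings (adjusted p 0.0036 to 0.23 over all of them). It had 16.7, 26.7, 23.6 and 15.2 RPM in the 4 B2RA-treated libraries, against 5.81, 11.4, 4.4 and 12.2 RPM in the 4 controls. The groups did not overlap at day 7, but at day 9 they did (6.09 to 37.1 RPM under B2RA, 6.7 to 21.3 RPM in control cells). Id4 overlaps 2 genes on the other strand, A330033J07Rik and Gm49291, and the strand used in counting is not given, so their reads cannot be told apart.

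Among the genes that act back on the pathway, Smad6 rose under B2RA and was not called under BMP2. In Zglp1-/- cells at day 9 its level was 62.7, 81.1, 80.3 and 85.2 RPM under B2RA and 34, 20, 21.1 and 55.3 RPM under BMP2, against 15.9, 19.1, 11.6 and 27.3 RPM in controls. B2RA stood clear of both other groups, which overlapped. The change over control was 2.06 ± 0.33 for B2RA (adjusted p = 4.8e-07) and 0.73 ± 0.33 for BMP2 (adjusted p = 0.31). B2RA exceeded BMP2 by 1.33 ± 0.33 (adjusted p = 0.002). Smad7 (on chromosome 18, as is Bambi), the other inhibitory SMAD and one that also blocks the TGF-beta branch, followed later and less. It had 34.2, 63.9, 58.9 and 43.4 RPM under B2RA at day 9 against 19, 11, 18.7 and 14.4 RPM in controls, a change of 1.60 ± 0.33 (adjusted p = 7.8e-05). Its difference between B2RA and BMP2, 1.05 ± 0.33, lost its call in 8 of 15 other settings.

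Bambi, the pseudoreceptor, changed under BMP2 without RA. At day 9 it was at 39.8, 39, 25 and 55.3 RPM under BMP2 and 59.8, 54.8, 111 and 79.8 RPM under B2RA, against 12.7, 14.4, 12.5 and 14.8 RPM in controls. The controls lay below every treated library. BMP2 gave 1.43 ± 0.33 (adjusted p = 0.0044) and B2RA 2.36 ± 0.33 (adjusted p = 1.2e-08), and their difference of 0.92 ± 0.33 did not reach the size needed for a call. Msx2, a homeobox factor of limb and skull, was alike: 51.1, 61.1, 18.4 and 63.7 RPM under BMP2 and 78.5, 149, 101 and 55.9 RPM under B2RA, against 8.82, 21, 5.81 and 4.17 RPM in controls. One BMP2-treated G10 library, at 18.4 RPM, lay within the range of the controls. The changes were 2.27 ± 0.53 for BMP2 (adjusted p = 0.0054) and 3.29 ± 0.53 for B2RA (adjusted p = 6.8e-07). At day 4 Msx2 had 24.2 to 59.1 RPM under BMP2 and 19.9 to 34.7 RPM in controls. Its day 9 difference for BMP2 thus came beside a fall in the controls, described below under culture time.

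Msx1 and Hamp were close to the floor in control cells and under BMP2, and both were measured at 10 RPM or more in B2RA-treated cells. Msx1 at day 9 was 50.8 and 26.4 RPM in B2RA-treated E5 cells and 67.3 and 45.1 RPM in G10 cells. BMP2 alone gave 6.47 and 1.62 RPM in E5 and 4.83 and 6.3 RPM in G10, and the controls 0.353 and 0.478 RPM and 0.415 and 1.85 RPM. No B2RA library overlapped the others. Msx1 and Hamp passed the filter through the B2RA libraries alone, so that they differed is partly set by the filter. Tested without it, both were again called for B2RA against control and against BMP2 at days 7 and 9. Without it they were also called for BMP2 against control at day 9 (1.67 ± 0.41 for Msx1 and 1.56 ± 0.28 for Hamp). With the filter the Msx1 change of B2RA was 4.77 ± 0.41 over control (adjusted p = 2.1e-17) and 3.10 ± 0.41 over BMP2 (adjusted p = 4.7e-09). At days 4 and 5 no Zglp1-/- library passed 4.78 RPM, whatever the treatment. Msx1 overlaps Msx1as, its antisense RNA, and without the strand used in counting their reads cannot be told apart. Msx1as was at 6.85 and 3.04 RPM in B2RA-treated E5 cells and 12.4 and 12.5 RPM in G10 cells at day 9, against 0 and 0.478 RPM in E5 controls and none in G10 controls.

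Hamp had 40 and 27.4 RPM in B2RA-treated E5 cells and 29.6 and 34.3 RPM in G10 cells at day 9, 2.27 and 3.25 RPM and 4.39 and 0 RPM under BMP2, and no read in any of the 4 controls. With 3 reads over the control group as the floor (0.609 RPM in E5, 0.657 RPM in G10), Hamp was at least 55.4-fold higher under B2RA in E5 and at least 48.7-fold higher in G10. Intervals and floors of this kind cover counting error only, since the reads carry no stated molecular identifiers. The fitted changes over control, 3.72 ± 0.28 at day 7 and 5.07 ± 0.28 at day 9 (adjusted p = 4.9e-30), depend on the value added before taking logs and are no bounds. At days 4 and 5 the B2RA libraries of both clones had 0 to 1.26 RPM, at most a few reads each, and at day 7 they had 11.2 and 12.6 RPM in E5 and 13 RPM or more in G10. Hamp overlaps Gm44662, a non-coding gene on the other strand, and their reads cannot be told apart.

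**Figure D2:**
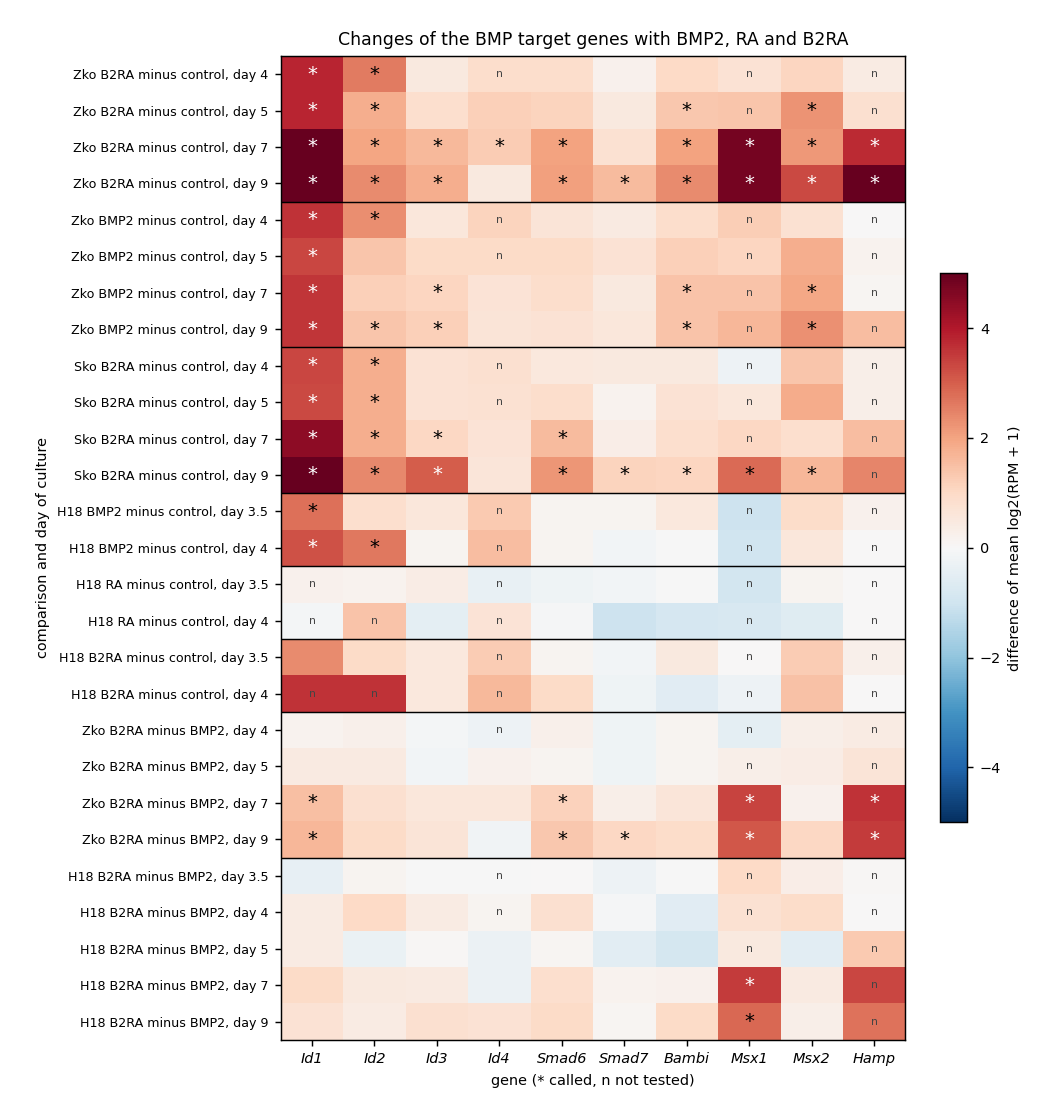
Difference of mean log2(RPM + 1) for each of the 10 genes (columns) in each comparison and day (rows), with red for higher, colours held at the ends of the scale beyond them, an asterisk for a called change and n where the gene was not tested. The Id1 column is marked at all 4 days under B2RA and BMP2 in the Zglp1-/- clones, and Msx1 and Hamp are marked there for B2RA minus BMP2 at days 7 and 9.

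None of the tests of G10 minus E5 was called for the responses at day 9, the largest being 1.06 ± 0.52 for Id3 under BMP2 (adjusted p = 0.51). Leaving out replicate 2 of BMP2-treated G10 cells brought the calls under BMP2 to 7. Marker sums moved with treatment. At day 9 summed feeder and stroma markers were 842 to 1102 RPM in B2RA-treated G10 cells against 1479 to 1566 RPM in its controls, and 972 to 1307 RPM in E5 against 1596 to 1637 RPM. Gonadal soma markers (8 genes) were 42.8 to 56.5 RPM in B2RA-treated G10 cells against 5.81 to 18.1 RPM in its controls, and 34.0 to 40.6 RPM in E5 against 25.4 to 36.0 RPM, with Nr5a1 at 0 in all 4 groups. Their part in the changes was not tested.

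In parental H18 cells the response could be set against controls at days 3.5 and 4, and later controls are not analysed here. Id1 had 48.4 and 52.3 RPM under BMP2 and 26.1 and 54.3 RPM under B2RA at day 3.5, against 6.97 and 6.28 RPM in the controls and 9.69 and 6.46 RPM under RA alone. BMP2 and B2RA lay above both other groups, and RA and control were side by side. The BMP2 change was 2.75 ± 0.57 (adjusted p = 0.047, called in 4 of 11 other settings) and the B2RA change 2.35 ± 0.57 (adjusted p = 0.3). At day 4 BMP2 changed Id1 by 3.19 ± 0.57 (36 and 58.8 RPM against 2.46 and 6.72 RPM, adjusted p = 0.00017) and Id2 by 2.64 ± 0.52 (12.5 and 16.2 RPM against 2.05 and 0.96 RPM, adjusted p = 0.00062). The single B2RA library at day 4 had 61.8 RPM of Id1 and 29.2 RPM of Id2, too few libraries at 10 RPM for a test. The day 4 controls were extracted under another protocol text than the treated cells, RNeasy Micro alone, so protocol and treatment cannot be told apart there.

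Of 14 tests of BMP2 in H18 3 were called higher and 0 lower, where 0.609% and 0.173% of all tests were called. The 3 were Id1 at both days and Id2 at day 4, and each reached 10 RPM in the BMP2 libraries alone. Their direction and this count are thus partly set by the filter. Without replicate 1 or replicate 2 of BMP2-treated H18 cells none was called, and without replicate 2 of the controls 1 was. For B2RA 0 of 12 tests were called, beside 1.76% higher and 1.31% lower of all tests. One of them, Id1 at day 3.5, had an unadjusted p under 0.05, and edgeR called 0. For RA alone, 0 of 11 were called beside 0.924% and 0.143% of all tests, with Smad7 at day 4 the 1 test at an unadjusted p under 0.05 and 0 calls by edgeR. With 2 libraries a group, the SE for a member was 0.37 to 0.75, so a change near the threshold of 1 was not detectable in H18. The tests of Zglp1-/- minus H18 and Stra8-/- minus H18 responses at day 4, which rest on the same controls, gave 0 calls of 21, beside 1.20% higher and 1.65% lower of all tests. Of these 2 had an unadjusted p under 0.05 (Bambi and Id2, both for B2RA), and edgeR called 0.

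At later days H18 could be compared between B2RA and BMP2. Msx1 rose at day 7, with 31.2 and 69.5 RPM under B2RA against 2.79 and 3.64 RPM under BMP2 (3.5 ± 0.58, adjusted p = 8.2e-06). At day 9 it had 33.2 and 55.6 RPM against 5.75 and 4.47 RPM (2.86 ± 0.58, adjusted p = 7.9e-05). The groups were far apart at both days, but Msx1 passed the filter through the B2RA libraries alone. Without the filter both days were called, and in a fit on the compared groups alone day 7 was not (adjusted p = 0.13). These were the 2 calls higher of 40 tests, with 0 lower, against 2.82% and 2.29% of all tests; leaving out either B2RA replicate left 0 calls, since Msx1 then had too few libraries at 10 RPM to be tested. Hamp had 5.35 and 15 RPM under B2RA at day 7 and 5.21 and 5.89 RPM at day 9, with no read under BMP2, at least 22.4-fold and at least 12.5-fold higher over the floor of 3 reads. Gonadal soma markers were 37.9 to 143 RPM in the B2RA libraries at day 9 against 5.78 to 10.5 RPM under BMP2. Their part was not tested.

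The effect of RA added to BMP2 in Zglp1-/- cells was set against that in H18 cells at days 7 and 9, a comparison added after the values had been seen. Of 20 tests limma called 0, with 0 at an unadjusted p under 0.05 and 0 calls by edgeR, beside 2.25% higher and 2.09% lower of all tests. For Msx1 the difference was -0.15 ± 0.71 at day 7 and 0.24 ± 0.71 at day 9. For Hamp at day 9 it was 0.80 ± 0.49, with -3.19 to 1.41 over other settings. It was called with a pseudocount of 5 (1.29) and without replicate 1 of BMP2-treated G10 cells (1.41). An SE of this size does not show that the effects were alike.

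Zglp1-/- cells and H18 cells were then compared under the same treatment, a comparison in which the lines may differ before treatment. Id3 was lower in Zglp1-/- cells under both treatments. At day 9 under B2RA it was 197, 175, 325 and 450 RPM in Zglp1-/- cells, against 969 and 924 RPM in H18 cells (-1.82 ± 0.32, adjusted p = 7.9e-07). Under BMP2 it was 121, 90.9, 244 and 325 RPM against 613 and 490 RPM (-1.66 ± 0.32, adjusted p = 2.7e-05). No Zglp1-/- library reached an H18 library in either. At day 7 the differences were -1.34 ± 0.32 under B2RA and -1.48 ± 0.32 under BMP2, both called. At days 4 and 5 none was called.

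Id1 under B2RA at day 9 differed by -0.10 ± 0.50, with an interval from -1.07 to 0.87 (95%), and Id2 by 0.49 ± 0.45 (-0.39 to 1.37). Id4 differed by -1.15 ± 0.48 (15, 6.09, 37.1 and 17.2 RPM against 34.2 and 38.5 RPM), a call lost in 8 of 13 other settings. Hamp was higher, at the values above against 5.21 and 5.89 RPM in H18 cells (2.36 ± 0.35, adjusted p = 8.4e-09), and it passed the filter through the Zglp1-/- libraries alone. Msx1 differed by 0.06 ± 0.50 (-0.92 to 1.05). In all, 1 of 35 tests under B2RA was called higher and 3 lower, against 7.02% and 8.80% of all tests, and 0 and 2 of 30 under BMP2, against 3.39% and 4.49%. Both counts of lower calls are near these shares of all genes. Without replicate 2 of B2RA-treated H18 cells 2 calls under B2RA were left, and without replicate 2 of BMP2-treated H18 cells there were 4 under BMP2.

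Stra8-/- cells were treated with B2RA alone. Of 31 tests 16 were called higher and 0 lower, against 5.95% and 1.92% of all tests, and the median change was 1.11, where all genes had medians from -0.01 to 0.23. Id1 had 449 and 372 RPM in B2RA-treated B6 cells and 623 and 711 RPM in F6 cells at day 9, against 16.4 and 9.94 RPM and 7.12 and 7.1 RPM in their controls (5.63 ± 0.41, adjusted p = 3.8e-22). Id3 had 701 and 508 RPM and 791 and 849 RPM, against 121 and 50.5 RPM and 117 and 69.9 RPM (3.04 ± 0.26, adjusted p = 7.2e-18). Neither gene's groups overlapped. As in the Zglp1-/- clones, the filter let low genes in through the group where they were high. The counts describe the members that passed. Id1 and Id2 were called at all 4 days, Id3 and Smad6 at days 7 and 9, and Smad7, Bambi, Msx1 and Msx2 at day 9.

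Smad6 averaged 72.1 ± 18.7 RPM under B2RA and 14.7 ± 3.40 RPM in control cells at day 9 (SD, n = 4; 2.21 ± 0.33, adjusted p = 2.4e-08). Msx1 was at 24.3 and 24.9 RPM in B2RA-treated B6 cells and 6.96 and 6.26 RPM in F6 cells, against 2.67 and 0.795 RPM in B6 controls and 0.712 and 0.355 RPM in F6 controls. Each clone's B2RA libraries lay above its controls, and the test of F6 minus B6 gave -1.0 ± 0.82 (adjusted p = 1). Hamp had 10.6 and 6.11 RPM in B6 cells and 1.1 and 4.05 RPM in F6 cells, with no read in the controls, at least 14.3-fold and at least 4.82-fold higher over the floor. Feeder and stroma markers were 1079 to 1422 RPM in B2RA-treated B6 cells against 1468 to 2064 RPM in controls, and 650 to 984 RPM in F6 cells against 1101 to 1318 RPM. Gonadal soma markers were 54.6 to 95.6 RPM in B6 cells against 17.1 to 20.7 RPM, and 12.1 to 29.4 RPM in F6 cells against 6.76 to 13.1 RPM. Their part was not tested.

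Stra8-/- cells were also compared with H18 cells under B2RA. Msx1 at day 7 had 0.902 and 3.43 RPM in B6 cells and 4.72 and 1.94 RPM in F6 cells, against 31.2 and 69.5 RPM in H18 cells (-3.79 ± 0.50, adjusted p = 8.3e-09). At day 9 the difference was -1.66 ± 0.50 (adjusted p = 0.0049). H18 lay above both clones at both days. At day 7 no Stra8-/- library reached 10 RPM, so Msx1 was tested through the H18 libraries alone. These were the 2 lower calls of 32 tests, with 0 higher, against 5.60% lower and 4.93% higher of all tests, a count near the share of all genes, and without replicate 2 of B2RA-treated H18 cells none was called. Id1 differed by 0.17 ± 0.50 at day 9 (-0.80 to 1.15) and Id3 by -0.44 ± 0.32 (-1.06 to 0.19). Id4 at day 9 differed by -1.10 ± 0.48 (adjusted p = 0.054), and was called lower in 3 of 13 other settings. Hamp at day 7 was too low to be tested (-1.80 ± 0.35), and was called lower without the filter (adjusted p = 1.5e-05).

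The responses of the Stra8-/- clones to B2RA at day 9 were also set against those of the Zglp1-/- clones. Among 37 tests between clones 1 was higher and 2 lower, against 2.46% and 0.501% of all tests. Id3 responded more in Stra8-/- cells, by 1.21 ± 0.37 (adjusted p = 0.019), and Msx1 and Hamp less, by -1.95 ± 0.58 (adjusted p = 0.016) and -2.62 ± 0.40 (adjusted p = 7.3e-07). Msx1 and Hamp passed the filter through B2RA libraries alone, and both were also called without it. Among the Stra8-/- libraries too few reached 10 RPM for a Hamp test, so Hamp was tested through the Zglp1-/- libraries. Hamp had no read in the day 9 controls of either genotype, and edgeR did not call it (adjusted p = 1). The Msx1 call was lost in 5 of 23 other settings, edgeR among them (adjusted p = 0.11). The Id1 response was not among the calls. Without replicate 1 of the G10 controls 1 call was left. Each pair of clones stands for its genotype here, and the error holds the spread between libraries and not that between clones.

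In Zglp1OE clone A2 the transgene was switched on with Dox, and the members that changed were lower. Id3 fell most. At day 7 it had 4.67 and 17.2 RPM with DoxRA and 12.9 and 52.1 RPM with Dox, against 171 and 123 RPM in the controls. At day 9 it had 12.1 and 27.1 RPM with DoxRA and 45.6 and 40.6 RPM with Dox, against 176 and 103 RPM. Treated and control libraries did not overlap at either day. The changes with DoxRA were -3.84 ± 0.37 at day 7 (adjusted p = 9.7e-16) and -2.82 ± 0.37 at day 9 (adjusted p = 1.5e-10), and with Dox -2.43 ± 0.37 (adjusted p = 8e-08) and -1.62 ± 0.37 (adjusted p = 0.00027).

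**Figure D3:**
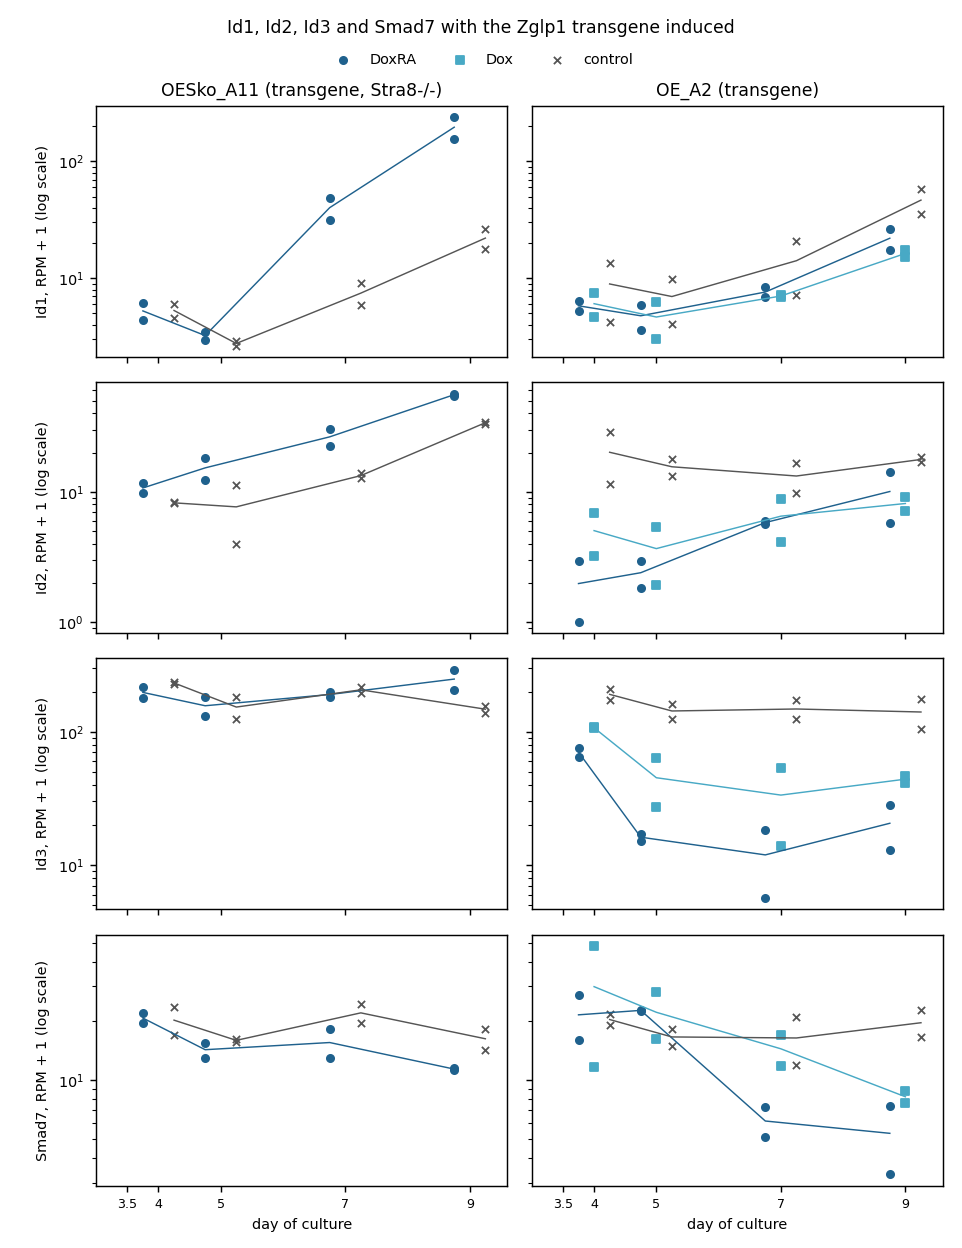
Levels of Id1, Id2, Id3 and Smad7 as RPM + 1 (log axis) by day of culture in the transgene clones OESko_A11 (left) and OE_A2 (right), with 1 point per library, lines through the means, and colours and symbols for DoxRA, Dox and control. For Id3 at day 7 the DoxRA libraries of OE_A2 lie at 4.67 and 17.2 RPM, below its controls at 171 and 123 RPM, while the libraries of OESko_A11 lie between 182 and 215 RPM in both groups.

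Id2 had 0 and 1.94 RPM with DoxRA and 5.85 and 2.2 RPM with Dox at day 4, against 27.8 and 10.4 RPM in the controls (-3.40 ± 0.52 with DoxRA, adjusted p = 6.2e-07; -1.95 ± 0.52 with Dox, adjusted p = 0.0059). At day 5 it was lower in both as well. Smad7 fell at day 9 to 2.31 and 6.38 RPM with DoxRA and 7.74 and 6.67 RPM with Dox, against a mean of 18.5 ± 4.29 RPM in the controls (SD, n = 2; -1.96 ± 0.46 and -1.24 ± 0.46). Id1 at day 9 had 16.5 and 25.5 RPM with DoxRA and 16.3 and 14.3 RPM with Dox, against 56.8 and 34.5 RPM, and was called with Dox alone (-1.48 ± 0.57, adjusted p = 0.036). In each of these the treated libraries lay below the controls. From day 4 to day 9 Id1 itself rose with Dox, from 6.43 and 3.67 RPM, and in controls, from 3.25 and 12.6 RPM. Its lower call was thus a smaller rise and not a fall.

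With Dox 7 of 20 tests were called lower and 0 higher, beside 7.52% lower and 10% higher of all tests. With DoxRA 8 of 22 were lower and 0 higher, beside 13.8% and 18%. Id2 at days 4 and 5 and Smad7 at day 9 reached 10 RPM in the controls alone. So did Smad7 at day 7 in the comparison with DoxRA. Their lower calls, and these counts, are thus partly set by the filter. The members' medians were -0.81 and -0.65, where those of all genes ran from 0.00 to 0.20. At days 4 and 5, in both groups, and at day 7 with Dox and in 1 of 2 DoxRA libraries, the treated cells had another extraction protocol text than the controls, so protocol and treatment cannot be told apart. For DoxRA at day 7 this rests on how columns were matched to samples. At day 9, where the text was the same, 3 members were called with Dox (Id1, Id3 and Smad7) and 2 with DoxRA (Id3 and Smad7). Without a replicate of Dox or control the Dox count was 3 to 4, and without control replicate 1 or 2 the DoxRA count was 4 or 3. Feeder and stroma markers at day 9 were 416 to 1087 RPM with DoxRA and 505 to 577 RPM with Dox, against 720 to 892 RPM in controls, and gonadal soma markers 12.8 to 15.9 RPM with DoxRA against 70.2 to 73.3 RPM. Their part was not tested.

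In the other media Dox gave the same direction for Id3 at day 7, with 128 and 79.7 RPM in BMS with Dox against 297 and 195 RPM in BMS (-1.24 ± 0.37, adjusted p = 0.0074). In SerumMinusWIN it had 51.8 and 48.4 RPM with Dox against 139 and 129 RPM (-1.40 ± 0.37, adjusted p = 0.0017). These libraries shared 1 protocol text. Of 45 tests 1 was higher and 5 lower, beside 9.14% and 4.98% of all tests. Id2 was higher with Dox in BMS at day 5 (47.6 and 57.5 RPM against 22.4 and 6.19 RPM, 2.04 ± 0.52), against its direction in the standard medium. Id1 and Id2 in SerumMinusWIN at day 9 and Smad6 at day 4 were lower, and each rested on replicate 2 with Dox: Id1 had 24.2 and 5.15 RPM with Dox against 58.7 and 58.8 RPM. Without that replicate 3 calls were left. The media themselves, without Dox, gave 0 calls of 51 against control, beside 0.0870% higher and 0.284% lower of all tests. Of these 2 had an unadjusted p under 0.05 (Id1 in BMS at day 7, Id2 in BMS at day 9), edgeR called 0, and 1 was called without replicate 2 of the controls.

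In Zglp1OE;Stra8KO clone A11 the ID genes did not fall with DoxRA. Id1 had 47.8 and 30.6 RPM at day 7 and 154 and 237 RPM at day 9 with DoxRA, against 8.06 and 4.84 RPM and 16.8 and 25.3 RPM in controls (2.43 ± 0.57, adjusted p = 0.0025, and 3.15 ± 0.57, adjusted p = 8.4e-06). Id3 had 204 and 290 RPM with DoxRA at day 9 against 138 and 155 RPM (0.73 ± 0.37, adjusted p = 0.12). Smad6 had 46.7 and 37.3 RPM against 18.5 and 15.9 RPM (1.23 ± 0.47, adjusted p = 0.034), a call lost in 5 of 11 other settings. In all 3 of 24 tests were higher and 0 lower, beside 6.38% and 3.19% of all tests. Id1 at day 7 reached 10 RPM in the DoxRA libraries alone, so that call is partly set by the filter. Without either DoxRA replicate or without control replicate 2, 1 was called. Protocol texts were the same in this clone.

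The difference between the responses of A11 and A2 to DoxRA was tested at days 7 and 9, a comparison added after the values had been seen. Of 13 tests 6 were higher and 0 lower, beside 13.8% and 6.81% of all tests. At day 9, where both clones had 1 protocol text, the differences were 4.22 ± 0.81 for Id1 (adjusted p = 3.6e-05), 3.55 ± 0.52 for Id3 (adjusted p = 1.1e-07) and 1.75 ± 0.66 for Smad6 (adjusted p = 0.045, lost in 11 of 15 other settings). At day 7 they were 3.14 ± 0.81 for Id1, 3.73 ± 0.52 for Id3 and 2.11 ± 0.73 for Id2. The 2 clones differ in Stra8 and in being separate clones, and these cannot be told apart. Stra8 was also read in untreated A2 cells, at 150 and 43.6 RPM at day 4, against 0.82 and 0 RPM in H18 controls.

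Without treatment the members moved with days in culture. Of 34 tests 8 were higher and 6 lower, beside 6.75% and 1.77% of all tests. Id3 fell between days 4 and 9 in the control cells of the Zglp1-/- clones, to 75.2 ± 15.0 RPM at day 9 against 252 ± 13.2 RPM at day 4 (SD, n = 4; -1.75 ± 0.26, adjusted p = 7.6e-08). In the Stra8-/- clones it fell to 89.6 ± 34.9 RPM against 233 ± 25.1 RPM (-1.45 ± 0.26). Id2 moved the other way, to 38.9 ± 15.0 RPM against 5.81 ± 1.83 RPM in the Zglp1-/- clones (2.49 ± 0.37, adjusted p = 5.2e-08) and by 1.74 ± 0.37 in the Stra8-/- clones. In both pairs of clones Id2 reached 10 RPM in the day 9 libraries alone, so these calls are partly set by the filter. Id4 rose in both (1.55 ± 0.39 and 2.41 ± 0.39) and in A11 (3.04 ± 0.55). Msx2 fell in the Zglp1-/- clones (-1.46 ± 0.53) and in A11 (-2.62 ± 0.75). Id1 in controls went from 3.25 and 12.6 RPM at day 4 to 56.8 and 34.5 RPM at day 9 in A2. In A11 it went from 3.58 and 5 RPM to 16.8 and 25.3 RPM.

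**Figure D4:**
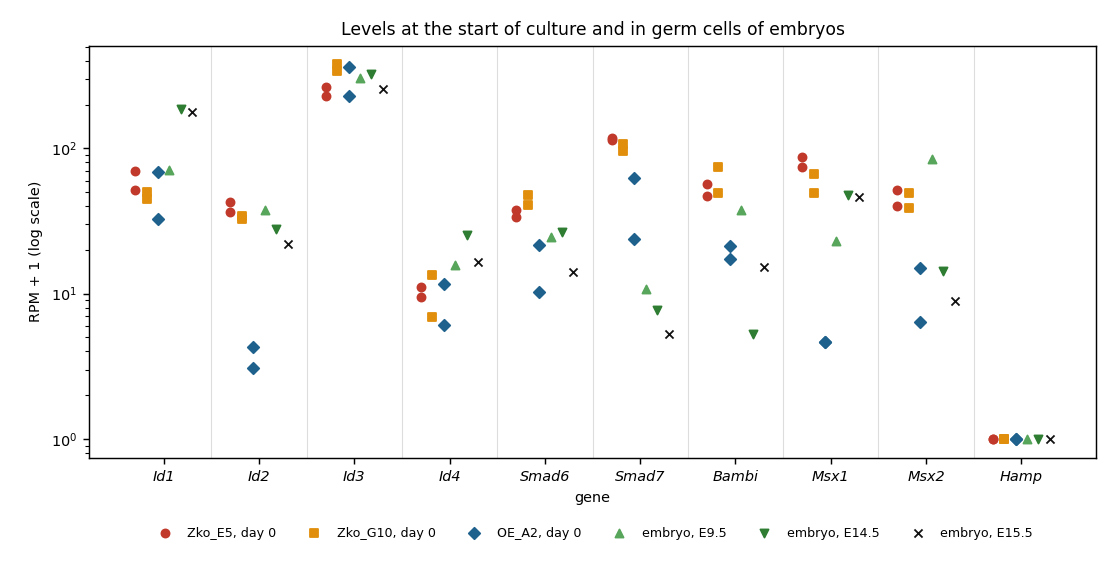
Levels of each of the 10 genes as RPM + 1 (log axis), with 1 point per library, in day 0 PGCLCs of Zko_E5, Zko_G10 and OE_A2 and in the embryo libraries (E9.5 primordial germ cells, E14.5 and E15.5 oocytes). Msx1 sits between 48.3 and 86.3 RPM in the Zglp1-/- clones at day 0 and at 3.65 and 3.61 RPM in OE_A2, and Hamp is at 0 in every library plotted.

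At day 0, just after induction with BMP4, Id1 was at 50.5 and 68.3 RPM in E5, 44 and 49 RPM in G10 and 31.5 and 67.6 RPM in A2. In A2 it fell by day 3, to 3.03 and 3.87 RPM (-3.41 ± 0.57, adjusted p = 1.8e-05). Every day 3 library lay below every day 0 library. Id1 passed the filter here through the day 0 libraries alone. Smad7 was at 116 and 114 RPM in E5 and 107 and 94.6 RPM in G10 at day 0, the highest levels of this gene in any library. In A2 it was at 31.8 and 4.47 RPM at day 3 against 62 and 22.8 RPM at day 0 (-1.53 ± 0.46, adjusted p = 0.036), and without replicate 2 at day 3 the call was lost. Msx1 was at 72.9 and 86.3 RPM in E5 and 48.3 and 66.1 RPM in G10, but at 3.65 and 3.61 RPM in A2. The labels of G10 and A2 at day 0 name RNeasy Micro alone. Hamp had no read at day 0.

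In germ cells of embryos, with 1 library a stage and so no replicate check, Id1 was at 69.6 RPM at E9.5, 185 RPM at E14.5 and 177 RPM at E15.5. Msx1 was at 22, 46.4 and 45 RPM at these stages, and Msx2 at 83, 13.3 and 7.86 RPM. Thus Id1 and Msx1 were higher in the oocyte libraries and Msx2 in the E9.5 library. Id3 was at 304, 325 and 255 RPM, and Hamp had no read at any of the 3 stages. Clone A2 in SerumMinus medium without Dox, also 1 library a day, had Id1 at 9.57, 6.39, 11 and 45.5 RPM at days 4, 5, 7 and 9.

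Other genes of the pathway were followed from lists chosen with earlier results of these data known. Of 9 BMP ligand genes 1, Bmp7, could be tested under BMP2 or B2RA in the Zglp1-/- clones and under B2RA in the Stra8-/- clones, and none of these tests against control was called. Bmp7 was lower with DoxRA in clone A2 at days 7 and 9 (-1.75 ± 0.36 and -1.25 ± 0.36), 2 of 4 tests beside 13.8% of all tests. With Dox in the other media 2 of 10 ligand tests were higher and 2 lower, beside 9.14% and 4.98% of all tests. The higher ones were Bmp8b in BMS at days 5 and 7 (3.56 ± 0.53 and 2.23 ± 0.53). Too few BMS and control libraries reached 10 RPM to test Bmp8b between them, so its calls are partly set by the filter. Of receptor and co-receptor genes 4 of 29 tests were higher under B2RA in the Zglp1-/- clones and 0 lower, beside 2.87% higher and 1.75% lower of all tests: the type I receptors Bmpr1a (1.19 ± 0.17) and Acvr1 (1.57 ± 0.29) and the type II receptor Bmpr2 (1.01 ± 0.33) at day 9, and Bmpr1a at day 7. The signal transducers gave 3 of 14, all higher, beside the same shares. Smad9 had 13.2 and 15.2 RPM in B2RA-treated E5 cells and 14.2 and 17.5 RPM in G10 cells at day 9, against 0.353 and 0 RPM in E5 controls and none in G10 controls. Its fitted change was 3.89 ± 0.34 in the Zglp1-/- clones and 3.83 ± 0.34 in the Stra8-/- clones, and in H18 B2RA exceeded BMP2 by 1.40 ± 0.49 at day 9. Smad9 passed the filter through the B2RA libraries alone, so these calls are partly set by it.

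Of genes known to rise with BMP in other cells, 10 of 19 tests were higher under B2RA in the Zglp1-/- clones and 9 of 18 in the Stra8-/- clones, with 0 lower in both, beside 2.87% and 5.95% of all tests called higher. Gata2, a zinc finger factor of blood and trophoblast, had 226 and 231 RPM in B2RA-treated E5 cells and 191 and 214 RPM in G10 cells at day 9, against 44.8 and 40.2 RPM and 48.2 and 24.5 RPM in controls (2.46 ± 0.37). Tbx2, a T-box repressor, rose by 4.34 ± 0.40 and Hand1, a helix-loop-helix factor, by 4.81 ± 0.52. In the Zglp1-/- controls at day 9 no library passed 0.705 RPM for Tbx2, 1.25 RPM for Hand1 or 6.35 RPM for Gata3. These genes passed the filter through treated libraries alone, so their calls and these counts are partly set by it. No result without the filter is given for them here. BMP2 alone gave 2 of 14 (0.304% of all tests were higher), Gata2 (1.44 ± 0.37) and Hand1 (3.18 ± 0.52), both at day 9. With DoxRA in clone A2 6 of 12 of this list were lower, beside 13.8% of all tests, among them Hey1, a hairy-related repressor, at days 4, 5 and 7. These are days at which treated cells had another extraction protocol text, so protocol and treatment cannot be told apart. In the other media 10 of 27 tests of this list were lower with Dox and 0 higher, beside 4.98% lower of all tests. Of these 7 were Hey1. In A11 3 of 11 were lower with DoxRA and 0 higher, beside 3.19%, and all were Hey1. Each of these comparisons had 1 protocol text. At day 7 in these media and in A11 Hey1 reached 10 RPM in the libraries without Dox alone. Thus these counts are partly set by the filter. Hey1 also fell in A2 controls, from 38.9 and 60.4 RPM at day 4 to 5.51 and 10.8 RPM at day 9. Of the 13 antagonists and brakes Tob1 was lower by -1.09 ± 0.38 at day 9 in the Zglp1-/- clones (1 of 25 tests, beside 1.75% of all tests). The groups overlapped, at 10.3, 1.01, 22 and 6.73 RPM under B2RA and 10.6, 20.1, 9.13 and 32.9 RPM in controls. In H18 at day 9 Tob1 was higher under B2RA than under BMP2 (58.9 and 42.9 RPM against 26.1 and 13.4 RPM). Chrd, which encodes the BMP-binding protein chordin, was higher in the Stra8-/- clones (2.49 ± 0.43 and 3.11 ± 0.43, 2 of 26 tests, near the 5.95% of all tests). The 3 helix-loop-helix partners of ID proteins gave 0 of 12 in the Zglp1-/- clones and 1 of 12 in the Stra8-/- clones, Tcf4 (-1.08 ± 0.33), where 1.92% of all tests were lower.

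The likeness of other genes to each member was described by Pearson's r of group means over the 98 groups, among 11455 genes, with lines and controls shared by the points, and predicted genes, Rik clones and pseudogenes are not named. Pwwp2b was the gene most like Id1 (0.778), Id2 (0.768) and Id4 (0.756). Msx1as was the closest to Msx1 (0.919), Irx4 and Tbx2 to Hamp (0.860 and 0.842), Tuba4a to Smad6 (0.758), Dsp to Id3 (0.741), Efna1 to Smad7 (0.691) and Fam176a to Msx2 (0.825), above which stood 1 gene of the kinds not named. Among the members themselves r was highest for Id1 and Id2 (0.809) and lowest for Id4 and Msx2 (0.117).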

How the data were processed

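Levels were deposited by the authors as 1 table of RPM, reads scaled to a common total of reads assigned to endogenous genes, with 3 transgene rows on the same scale outside that total; columns in which these rows lift the total are treated as signal values deposited by the authors. Per the labels, RNA 3' ends were amplified from 1 ng of RNA; the tools were HTSeq 0.9.1, SAMtools 1.3, Bowtie 1.1.2, TopHat2 2.1.0 and cutadapt 1.9.1 with build mm10, per the submitters' processing notes, which give no roles here. Amplified copies and reads of near-identical genes cannot be told apart in such values. Of the value columns 1 matched no sample and was not used, 2 of 196 samples had no column and are not analysed here, and 3 shifted lines were realigned. The samples without a column are an H18 B2RA sample of day 4 and an A2 DoxRA sample of day 7. Each shares its line, treatment, day and replicate number with a matched sample. Which of the pair a column holds, and so its protocol text, is not certain. Groups and days follow the sample titles.

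One limma fit (limma 3.58.1, R 4.3.3, lmFit and eBayes with trend and robust) on log2(RPM + 1) took all 191 PGCLC libraries, with 1 mean for each line, treatment and day. A gene was tested where at least 2 compared libraries reached 10 RPM, and called where its p, adjusted by Benjamini-Hochberg over all genes tested in that contrast, was under 0.05 and the change at least 1. The scale understates changes of low genes. Whole reads could be recovered for 100.0% of the values, and edgeR 4.0.16 (quasi-likelihood) on them was an alternative, with other pseudocounts (0.5 and 5), no filter, TMM factors, a fit on the compared groups alone, a replicate block, each replicate left out, and, added after the data were seen, days with 1 extraction protocol text alone. The scripts were tested on simulated data.

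The genes named are the 10 members, Zglp1, Stra8, called genes of the BMP pathway lists, and for each member the 3 genes with the highest r over group means. The members, lists and tests were chosen with earlier results of these data known. Sequences are RefSeq's (GRCm38.p6).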

Additional observations from a re-analysis of the deposited data

Results flagged for a closer look

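These are differences between the responses of 2 genotypes or clones, each tested directly in the limma fit. Between the Stra8-/- and the Zglp1-/- clones the response to B2RA at day 9 differed by 1.21 for Id3, -1.95 for Msx1 and -2.62 for Hamp (Stra8-/- minus Zglp1-/-). Msx1 and Hamp passed the filter through B2RA libraries alone, and Hamp would not have been tested on the Stra8-/- libraries alone. The Msx1 difference had an adjusted p of 0.11 in edgeR and the Hamp difference one of 1. Between Zglp1OE;Stra8KO clone A11 and Zglp1OE clone A2 the response to DoxRA at day 7 differed by 3.14 for Id1, 3.73 for Id3 and 2.11 for Id2 (A11 minus A2), and at day 9 by 4.22 for Id1, 3.55 for Id3 and 1.75 for Smad6. In A2 at day 7, 1 of 2 DoxRA libraries had another extraction protocol text than the controls, so protocol and clone cannot be told apart at that day.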

How the results depend on the processing

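Of 115 called results of single members, 1551 values under other settings were computed: 1357 kept the call, 194 lost it in the same direction, and 0 reversed. Counts of called members that left the range of 1.5 times the value in the report were as follows. Without a filter on low values the count was 3 for B2RA in H18 (0 in the report), 5 for RA added to BMP2 in H18 (2), 4 for Zglp1-/- minus H18 under BMP2 (2) and 2 for media without Dox (0). In a fit on the compared groups alone it was 1 for B2RA in H18, 1 for RA added in H18, 4 for Zglp1-/- minus H18 under BMP2, 1 for differences of responses at day 4 (0) and 3 for Dox in other media (6). With a pseudocount of 5 it was 5 for differences between clones (3) and 1 for media without Dox. With edgeR on recovered reads it was 4 for Zglp1-/- minus H18 under BMP2. Days with 1 protocol text left 1 for BMP2 in H18 (3), 3 for Dox (7) and 2 for DoxRA (8) in A2, where fewer days were counted. Elsewhere the cause was not tested.

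With each replicate left out in turn the counts ran from 0 to 2 for BMP2, 0 to 0 for RA, 0 to 0 for B2RA and 0 to 2 for RA added to BMP2 in H18; from 7 to 10 for BMP2, 20 to 24 for B2RA and 5 to 10 for RA added in the Zglp1-/- clones; and from 2 to 4 for Zglp1-/- minus H18 under BMP2 and under B2RA. They ran from 13 to 15 for B2RA in the Stra8-/- clones, 0 to 3 for these minus H18, 0 to 0 for differences at day 4, 1 to 3 for those between clones, 3 to 4 for Dox, 3 to 8 for DoxRA, 3 to 9 for Dox in other media, 0 to 1 for media without Dox, 1 to 2 for DoxRA in A11 and 10 to 14 for culture time. The counts that left the range of 1.5 times did so as follows. BMP2 in H18 (3) had 0 without either BMP2 replicate and 1 without control replicate 2; RA added in H18 had 0 without either B2RA replicate. BMP2 in the Zglp1-/- clones (12) had 7 without G10 BMP2 replicate 2, and RA added there (9) had 5 without G10 BMP2 replicate 1. Zglp1-/- minus H18 had 4 under BMP2 without H18 BMP2 replicate 2 and 2 under B2RA (4) without H18 B2RA replicate 2, and Stra8-/- minus H18 (2) had 0 without the same library. The differences between clones (3) had 1 without G10 control replicate 1. Dox in A2 had 3 without replicate 1 and 4 without replicate 2 of either group; DoxRA had 4 and 3 without control replicates 1 and 2. Dox in other media had 3 without SerumMinusWINDox replicate 2, media without Dox had 1 without control replicate 2, and DoxRA in A11 (3) had 1 without either DoxRA replicate or control replicate 2. Some calls were lost because fewer than 2 libraries then reached 10 RPM, and a lone library was assumed to vary like the other groups.

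With the replicate number as a block (replicate block) the counts were 13 for BMP2, 25 for B2RA and 9 for RA added in the Zglp1-/- clones, 17 for B2RA in the Stra8-/- clones, 2 for BMP2 in H18, 4 for DoxRA in A11 and 15 for culture time, and no count left the range of 1.5 times. The labels do not say that a number marks a shared culture, and the median r between same-numbered deviations was 0.0299 in H18 and 0.105 in B6, so no pairing is assumed.

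Over all genes TMM factors moved the share of calls that were higher to 37.2% from the report's 57.3% for B2RA in H18, 49.8% from 62.1% for B2RA and 53.1% from 65.5% for RA added in the Zglp1-/- clones, 56.7% from 43.0% for Zglp1-/- minus H18 under BMP2 and 57.1% from 75.6% for B2RA in the Stra8-/- clones. For differences at day 4 it was 57.8% from 42.2%, between clones 70.8% from 83.1%, Dox in other media 50.2% from 64.7%, media without Dox 43.5% from 23.5%, A11 46.6% from 66.6% and culture time 67.3% from 79.2%. No member's called direction flipped under TMM. For B2RA in the Zglp1-/- clones all-gene calls were 1060 higher and 647 lower, 1837 and 1293 without the filter, 635 and 417 with a pseudocount of 5, and 870 and 703 with edgeR.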
